A study of Mus musculus with 3 samples.

Results

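The genes described here encode the receptors through which glutamate, GABA and glycine act. They were taken by symbol: the AMPA (4 genes), kainate (5), NMDA (7) and delta (2) subunits of ionotropic glutamate receptors, the metabotropic glutamate receptors (8), the GABA-A (19) and GABA-B (2) receptor subunits and the glycine receptor subunits (5). These are 52 genes, found under the same symbols among the 33696 features of the tendon tables and the 35980 features of the dorsal root ganglion (DRG) table. Glutamate is the transmitter of primary sensory neurons. Ionotropic receptors are channels built from several subunits, metabotropic glutamate and GABA-B receptors act through G proteins, and the cell bodies of sensory neurons carry GABA-A receptors, which depolarise them because of their high internal chloride. Satellite glia wrap those cell bodies, and Schwann cells accompany their axons.

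Single cells of C57BL/6 mice were sequenced in droplets, each with its own barcode, and every captured transcript was counted once through its molecular tag (UMI). Achilles tendons of 5 mice, cut at the sural nerve 1 week ahead of 4 weeks with the ankle immobilised in dorsiflexion, gave the neurectomy library, and those of 5 mice in which the nerve was only exposed, followed by the same 4 weeks of immobilisation, gave the sham library. The DRG library held L4 to S1 ganglia, 18 from 6 mice, taken 4 weeks after the sheath of the left Achilles tendon had received 5 µL of the vector AAV-PHP.S-tdTomato at 4 weeks of age and enriched for neurons on a density gradient, which can set the class shares. The labels differ on the side of the ganglia and on the kind of vector, no group was left without immobilisation, and each group is 1 pooled library, so no test between groups is possible. All intervals below are 95% intervals for counting error only, and do not cover variation between mice.

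The files held 25067 neurectomy, 32951 sham and 23566 DRG barcodes with 79750679, 133570956 and 239515477 UMIs. Of these, 21992, 25306 and 22384 passed the filters, and 9484, 13836 and 18190 fell into 1 cell class by marker genes, none of which is a receptor gene described here. The ungated share was 51.1% in the neurectomy, 39.9% in the sham and 16.1% in the DRG library. The gates and the following check used the same markers, so the check is not independent. The mean level of a class's own markers was highest in that class for 13 of 13 tendon classes in both libraries. The same held for 9 of 10 DRG classes and 8 of 10 neuron subtypes. The exceptions were non-myelinating Schwann cells, whose marker Apod had 153 CPM (UMIs of a gene per 1e6 UMIs of the class) there and 19742 CPM in fibroblasts, the Bmpr1b and Smr2 subtype, with Calca at 5077 CPM there and 8068 CPM in peptidergic neurons and Nefh at 1365 CPM there and 3382 CPM in proprioceptors, and the touch subtype, with Nefh at 1227 CPM there. The tendon pools differed in sex: 39 UMIs of 4 Y-linked genes were counted in the neurectomy library and 6366 in the sham library, against 55528 and 61571 UMIs of Xist. The neurectomy and sham libraries shared 1001 barcodes, neurectomy and DRG 153, and sham and DRG 189.

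Levels are summed UMIs of a class divided by all UMIs of that class, in CPM. They were not scaled to transcript length, so each gene is compared with itself across classes and not with other genes. A gene counted as measured with at least 50 UMIs and 10 CPM in a class. Of the 52 receptor genes 27 were measured in a DRG class, 13 in a tendon class, 12 in both, and 8 others in a DRG neuron subtype only. The 16 measured nowhere included the GABA-A genes Gabra5, Gabra6, Gabre and Gabrp, the glycine receptor genes Glra1, Glra3 and Glra4 and the NMDA genes Grin2c and Grin3b. That does not show that they were absent, since rare cells with such transcripts would be diluted in a class.

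In the ganglia, most measured receptor genes were highest in neurons, and the rest were divided among glia, fibroblasts and endothelium. The 3517 neurons, with a median depth of 47164 UMIs, had the highest level of 19 of the 27 measured genes. Satellite glia (4371 barcodes, median 5511 UMIs) had the highest level of 3, non-myelinating Schwann cells (291 barcodes, median 1727 UMIs) of 2, fibroblasts of 2 and endothelial cells of 1. No share over all genes is set beside these counts, so they describe the receptor genes only. As a yardstick for free RNA, the median level of 10 neuronal markers in the other classes was 1.22% to 2.75% of their level in neurons, and the highest single marker reached 8.93%, in fibroblasts.

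**Figure D1:**
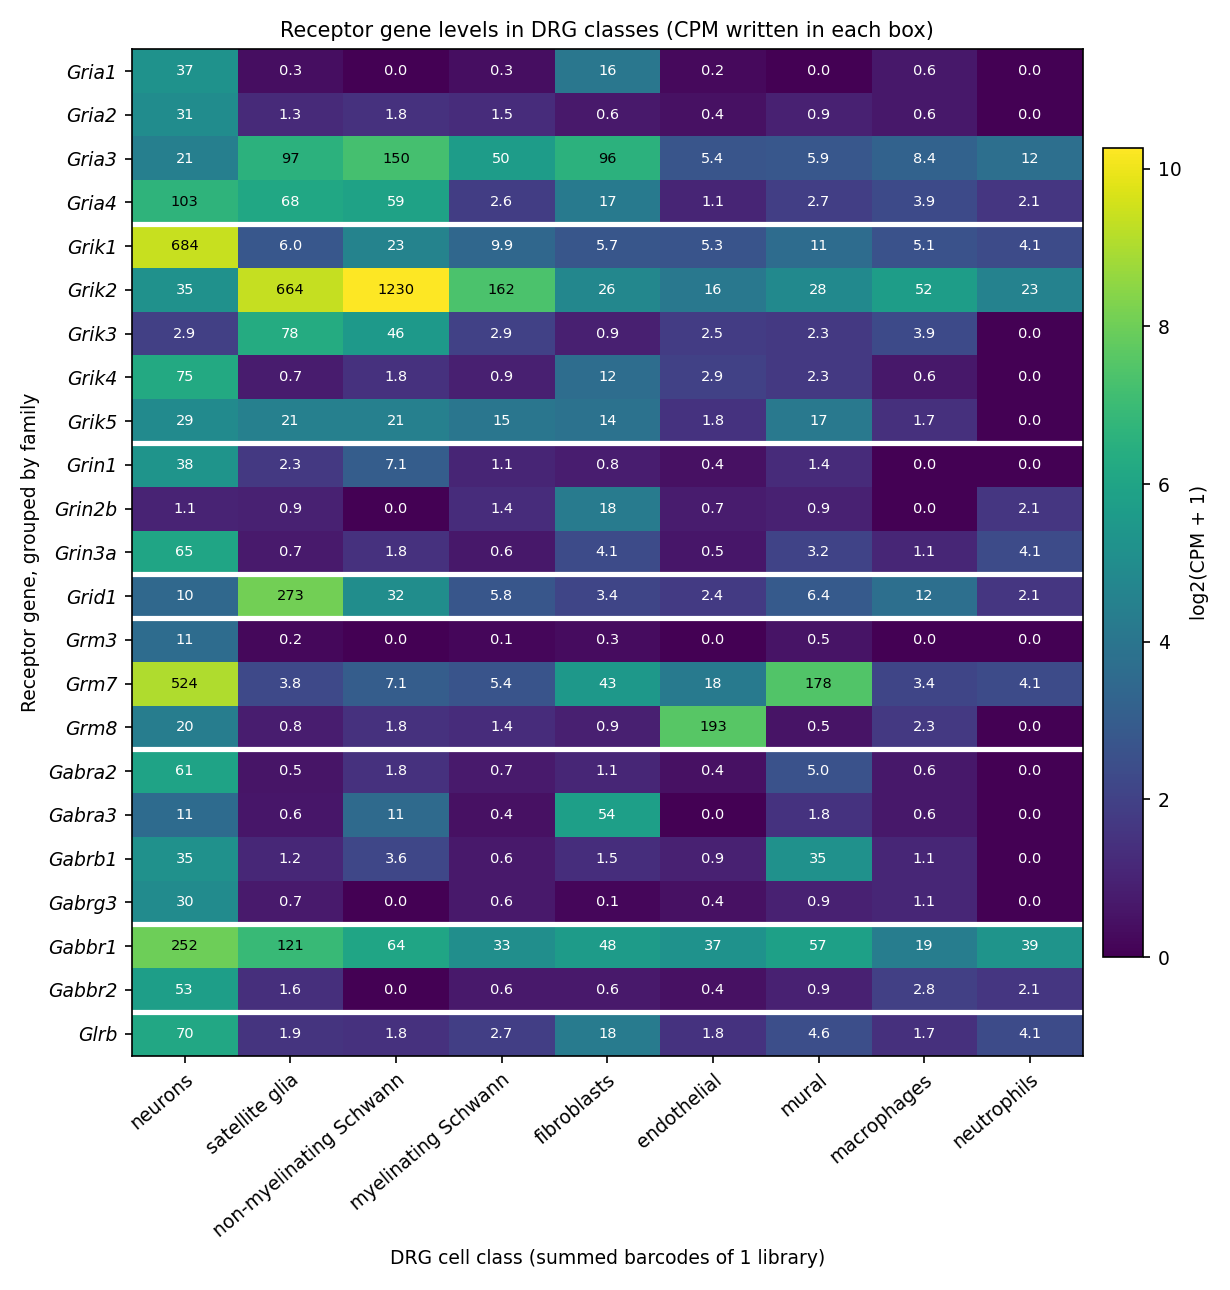
Levels of 23 of the 27 receptor genes measured in DRG classes. Columns are cell classes, rows are genes grouped by family between white lines, colour is log2(CPM + 1) and the number in each box is CPM. Grik1 and Grm7 stand out in neurons (684 and 525 CPM), Grid1 in satellite glia (273 CPM) and Grik2 in non-myelinating Schwann cells (1230 CPM).

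Between neurons and satellite glia, 26 receptor genes could be compared. Neurons had a 4-fold or greater excess of 18, where 18.0% of all 10395 genes compared had one, and satellite glia of 5, where 14.1% of all genes had one. The median log2 ratio of neurons over satellite glia was 4.95 for the receptor genes and 0.37 for all genes. The 3 left between these limits were Gabbr1 at 2.08-fold, Gria4 at 1.51-fold and Grik5 at 1.37-fold of the satellite glia level.

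The genes that were higher in neurons included ionotropic and metabotropic receptors. Grik1, which encodes the kainate subunit GluK1, had 684 CPM in neurons and 5.98 CPM in satellite glia, a ratio of 114 (interval 97.5 to 135). Grm7, a presynaptic group III metabotropic receptor, had 525 CPM in neurons and 3.84 CPM in satellite glia, a ratio of 137 (112 to 169). Both were the receptor genes with the most UMIs in the ganglia, 111243 for Grik1 and 86427 for Grm7.

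Among GABA-A subunits, Gabra2 (α2) had 60.5 CPM in neurons and 0.51 CPM in satellite glia, a ratio of 118 (68.8 to 221). Gabrb1 had 35.3 CPM in neurons and 1.23 CPM in satellite glia, a ratio of 28.8 (20.3 to 42.4). Gabrg3 had 30.1 CPM in neurons and 0.67 CPM in satellite glia, a ratio of 44.8 (27.9 to 76.9). GABA-A channels are assembled from α, β and γ subunits, and these genes, 1 of each kind, were highest in neurons, with Gabrb1 about as high in mural cells. Gabra3 was 19.6-fold higher in neurons than in satellite glia and highest in fibroblasts.

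The GABA-B receptor needs both of its subunits, and the pair differed. Gabbr1 had 252 CPM in neurons and 121 CPM in satellite glia, while Gabbr2 had 52.8 CPM in neurons and 1.58 CPM in satellite glia, a ratio of 33.3 (24.5 to 46.7). Gabbr1 was also found at 19.1 to 64.1 CPM in all of the other 7 classes, from macrophages to non-myelinating Schwann cells. Gabbr2 stayed between 0 and 2.81 CPM in those classes.

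Of the other ionotropic subunits, the AMPA subunits Gria1 and Gria2 had 36.6 and 30.9 CPM in neurons and 0.32 and 1.35 CPM in satellite glia. The kainate subunit Grik4 had 74.5 CPM in neurons and 0.71 CPM in satellite glia. The obligatory NMDA subunit Grin1 had 38.5 CPM in neurons and 2.26 CPM in satellite glia, and the glycine-binding NMDA subunit Grin3a had 65.3 CPM in neurons and 0.67 CPM in satellite glia. Glrb, the β subunit that anchors glycine receptors, had 70.3 CPM in neurons and 1.90 CPM in satellite glia. The metabotropic receptors Grm3 and Grm8 completed the list, at 71.6-fold and 24.7-fold higher in neurons.

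**Figure D2:**
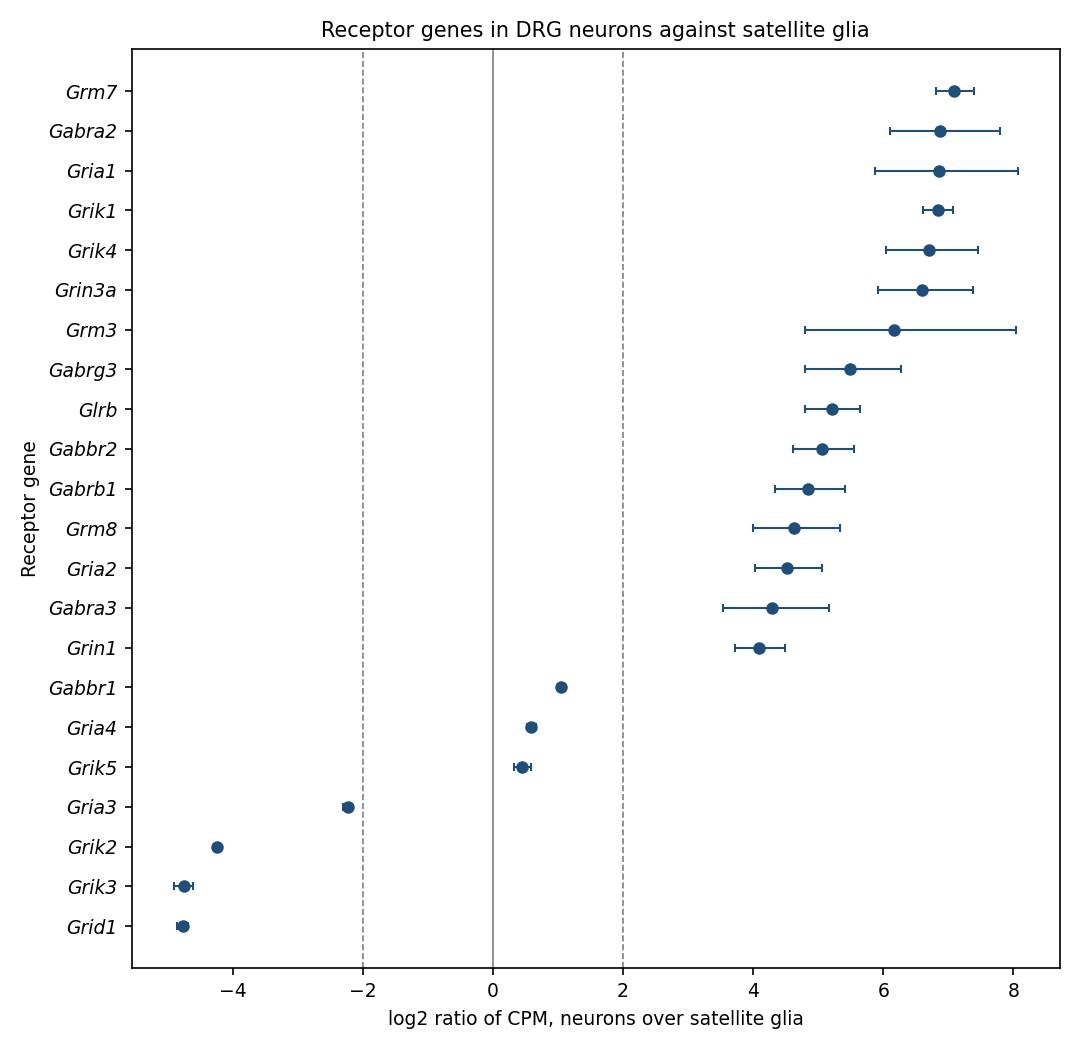
Ratio of neurons over satellite glia for 22 of the 26 receptor genes compared. The x axis is the log2 ratio of CPM, points are ratios, bars are 95% counting intervals, the solid line marks equal levels and dashed lines a 4-fold difference. Grm7 and Gabra2 lie farthest towards neurons and Grid1 and Grik3 farthest towards satellite glia.

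The genes that were lower in neurons included the delta receptor gene Grid1, the kainate subunits Grik2 and Grik3, and the AMPA subunit Gria3. Delta receptors are known as synaptic organisers that bind cerebellins. Grid1 had 10.0 CPM in neurons and 273 CPM in satellite glia (266 to 280 CPM), and its satellite glia level was 27.3 times the neuronal level. Grik2, the kainate subunit GluK2, had 35.1 CPM in neurons and 664 CPM in satellite glia, an 18.9-fold higher glial level.

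Grik2 was high in Schwann cells too. It had 1230 CPM in non-myelinating Schwann cells (1140 to 1325) and 162 CPM in myelinating Schwann cells (156 to 168). Grid1 had 32.0 CPM in non-myelinating and 5.80 CPM in myelinating Schwann cells. Grik3 had 2.90 CPM in neurons, 78.1 CPM in satellite glia, 46.3 CPM in non-myelinating and 2.93 CPM in myelinating Schwann cells. Gria3 was 20.6 CPM in neurons, 97.0 CPM in satellite glia, 150 CPM in non-myelinating Schwann cells, 49.8 CPM in myelinating Schwann cells and 96.0 CPM in fibroblasts. These 4 genes were therefore lower in myelinating than in non-myelinating Schwann cells.

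The glial levels were spread over many barcodes. After each barcode was thinned to 2000 UMIs, Grik2 was detected in 63.7% of 4308 satellite glia, 86.0% of 107 non-myelinating Schwann cells and 21.3% of 3589 myelinating Schwann cells, against 8.53% of 3120 neurons and 2.20% of 1683 fibroblasts. Only barcodes deep enough for thinning entered these shares, for example 107 of 291 non-myelinating and 3589 of 6211 myelinating Schwann cells. Shares without thinning, here and below, are over all barcodes of a class, so the sets of barcodes differ. For Grik2 they were 87.5%, 76.0% and 24.9% in the glia, 48.8% in the neurons and 3.61% in the fibroblasts. Grid1 was detected in 38.0% of the thinned satellite glia and 2.47% of the thinned neurons, and in 67.9% and 18.8% without thinning. In fibroblasts, endothelial cells, mural cells and macrophages the thinned shares were 2.20%, 1.56%, 2.40% and 3.21% for Grik2 and 0.357%, 0.347%, 0.738% and 1.84% for Grid1.

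Some receptor genes had their highest level outside neurons in vascular and connective tissue cells. Grm8 had 193 CPM in endothelial cells (182 to 205) and 19.6 CPM in neurons, and it was detected in 24.3% of 577 thinned endothelial barcodes and 3.85% of the thinned neurons. Grm7 had 178 CPM in mural cells (160 to 196), which are pericytes and smooth muscle. Gabrb1 had 35.2 CPM in mural cells, close to its 35.3 CPM in neurons. Fibroblasts had the highest level of Gabra3, 54.3 CPM (49.2 to 59.7) against 10.9 CPM in neurons, and of the NMDA subunit Grin2b, 18.2 CPM (15.4 to 21.5) against 1.05 CPM in neurons.

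Genes that work with the receptors were divided in the same comparison. Of 25 auxiliary subunits and ligands of AMPA, kainate and delta receptors, 10 could be compared, and 7 were higher and 2 lower in neurons by 4-fold or more. Of 22 scaffolds 18 could be compared, with 6 higher and 4 lower. Of 24 genes of transmitter release, uptake and metabolism 12 could be compared, with 2 higher and 6 lower. Among all 10395 genes compared, 18.0% were higher and 14.1% lower in neurons by 4-fold or more. The median log2 ratios of the 3 lists were 5.02, 0.29 and -2.11, against 0.37 for all genes. Genes of these lists too entered through the level in the higher class.

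The auxiliary genes with the largest differences were C1ql4, a secreted C1q-like protein, at 11.5 CPM in neurons and 0.040 CPM in satellite glia, the AMPA receptor partner Cnih2 at 78.2 and 1.23 CPM, Shisa6 at 12.0 and 0.24 CPM and the pentraxin Nptx2 at 123 and 2.49 CPM. The 2 lower in neurons, named because they were so few, were Cacng4, at 0.71 CPM in neurons and 29.9 CPM in satellite glia, and Shisa7, at 2.25 CPM in neurons and 14.8 CPM in satellite glia. Among scaffolds, the GABA-B auxiliary genes Kctd16 and Kctd8 had 641 and 358 CPM in neurons and 2.85 and 2.77 CPM in satellite glia, the AMPA receptor scaffold Grip1 had 285 and 3.33 CPM, and Shank2 had 2.40 CPM in neurons and 107 CPM in satellite glia. Among transmitter genes, the vesicular glutamate transporters Slc17a6 and Slc17a8 had 267 and 14.4 CPM in neurons and 1.70 and 0.32 CPM in satellite glia. The GABA transporter Slc6a11 and the glutamate transporter Slc1a3 lay on the other side, at 0.59 and 5.10 CPM in neurons and 39.3 and 174 CPM in satellite glia.

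Sensory neurons fall into subtypes by the stimuli they carry, and receptor subunits differed strongly among them. Neurons were gated into Mrgprd (580 barcodes) and Mrgpra3 (68) non-peptidergic neurons, Nppb and Sst itch neurons (165), C-low-threshold mechanoreceptors (C-LTMR, 320), peptidergic nociceptors (542), Bmpr1b and Smr2 neurons (90), Chrna3 neurons (134), Trpm8 cold-sensing neurons (109) and touch A-LTMR (79), while 1208 stayed ungated and 182 were mixed. Of 34 receptor genes compared, 30 were at least 4-fold higher in the highest than in the lowest subtype, where 34.3% of all 10947 genes were. The median of highest over lowest was 46.3 for the receptor genes and 2.70 for all genes. A gene entered this comparison through the level in its highest subtype, and this rule was the same for all genes. The 8 receptor genes measured in a subtype but in no DRG class entered only through subtypes in which they were high. For these genes part of the wide range follows from the rule, and the comparison was not repeated without them. Trpm8 neurons were the highest subtype for 15 of the 34 genes, where they were for 20.4% of all 10947 genes. Touch neurons were for 7, against 12.6% of all genes. C-LTMR and peptidergic neurons were for 3 each, against 12.0% and 9.1% of all genes. Bmpr1b and Smr2 and Chrna3 neurons were for 2 each, against 9.2% and 9.5%. Mrgprd and Nppb and Sst neurons were for 1 each, against 8.7% and 13.3%, and Mrgpra3 neurons for none, against 5.2%. For some of the 15, such as Grin3a, Grin1 and Gabra4, the counting interval of another subtype overlapped that of Trpm8 neurons.

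**Figure D3:**
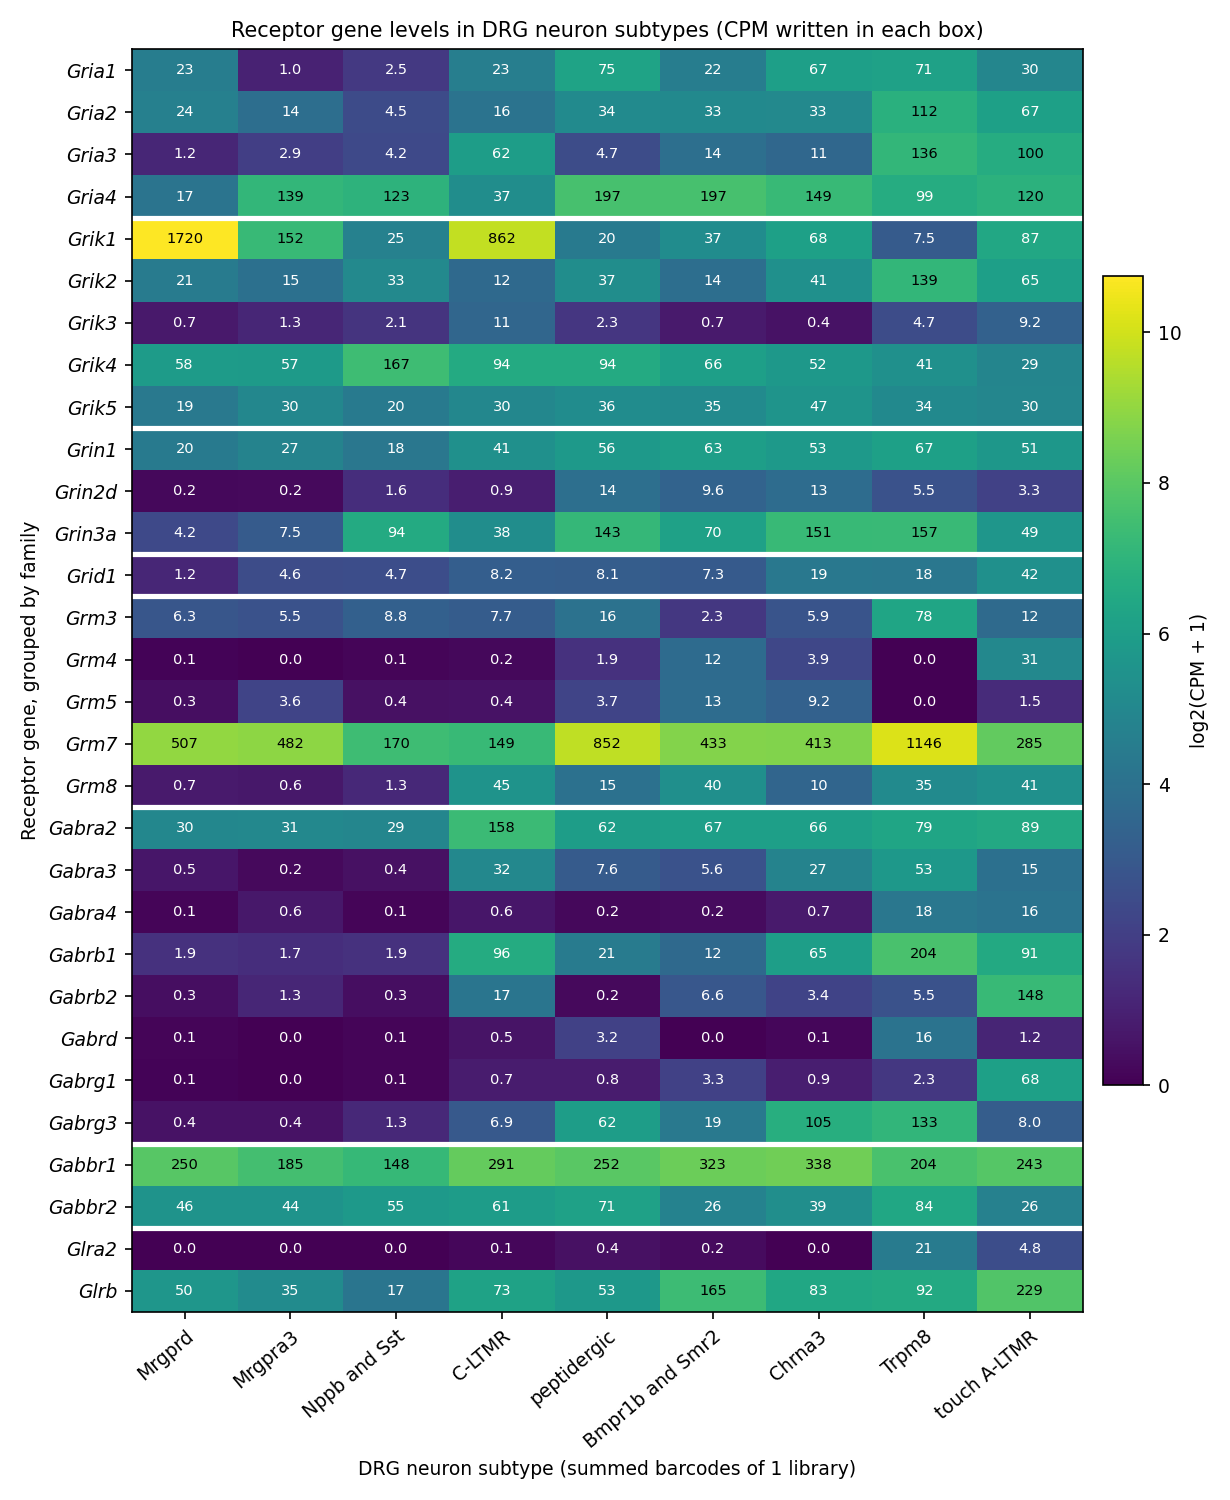
Levels of 30 of the 34 receptor genes compared across 9 DRG neuron subtypes. Columns are subtypes, rows are genes grouped by family between white lines, colour is log2(CPM + 1) and the number in each box is CPM. Grik1 is bright in Mrgprd (1720 CPM) and C-LTMR neurons (862 CPM). Gabrb1 and Gabrg3 are dark in Mrgprd, Mrgpra3 and Nppb and Sst neurons, and Gabrg1 is dark in every subtype but touch neurons.

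Among kainate receptor genes Grik1 gave the widest contrast between subtypes. Grik1 had 1720 CPM in Mrgprd neurons (1708 to 1732), 862 in C-LTMR, 152 in Mrgpra3, 86.9 in touch, 68.2 in Chrna3, 36.5 in Bmpr1b and Smr2, 25.5 in Nppb and Sst, 20.2 in peptidergic and 7.55 CPM in Trpm8 neurons. The highest level was 228 times the lowest (159 to 340). At 10000 UMIs per barcode Grik1 was detected in 100% of 574 Mrgprd and 96.6% of 319 C-LTMR neurons, but in 16.1% of 492 peptidergic and 8.41% of 107 Trpm8 neurons; without thinning these shares were 99.8%, 97.8%, 37.6% and 20.2%.

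The other kainate genes were highest elsewhere. Grik2 was highest in Trpm8 neurons at 139 CPM and lowest in C-LTMR at 11.7 CPM, the reverse of Grik1 in those 2 subtypes. Grik4 was highest in Nppb and Sst neurons at 167 CPM and lowest in touch neurons at 28.9 CPM, and Grik3 did not pass 10.9 CPM, its level in C-LTMR, with 0.43 CPM in Chrna3 neurons. Grik5 varied 2.44-fold, from 46.6 CPM in Chrna3 to 19.1 CPM in Mrgprd neurons.

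Each AMPA subunit was lowest in Mrgprd, Mrgpra3 or Nppb and Sst neurons. Gria1 had 74.7 CPM in peptidergic and 71.1 CPM in Trpm8 neurons, and 1.05 CPM in Mrgpra3 neurons. Gria2, which makes AMPA channels impermeable to calcium, had 112 CPM in Trpm8 and 4.54 CPM in Nppb and Sst neurons, and Gria3 had 136 CPM in Trpm8 and 1.21 CPM in Mrgprd neurons. Gria4 was spread more evenly: 7 subtypes had 99.2 to 197 CPM, with 37.1 CPM in C-LTMR and 16.7 CPM in Mrgprd neurons. Its 2 highest levels, 197 CPM in Bmpr1b and Smr2 and 197 CPM in peptidergic neurons, did not differ beyond counting error.

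Mrgprd neurons, which had the highest Grik1, had the lowest level of Grin3a, Grin2d and Grid1. Grin3a had 157 CPM in Trpm8, 151 in Chrna3 and 143 in peptidergic neurons, and 4.16 CPM in Mrgprd neurons. Grin2d had 14.2 CPM in peptidergic and 0.18 CPM in Mrgprd neurons, while Grin1 varied 3.69-fold only, between 67.4 CPM in Trpm8, 63.4 CPM in Bmpr1b and Smr2 and 18.3 CPM in Nppb and Sst neurons. Grid1 had 41.6 CPM in touch, 18.9 CPM in Chrna3 and 1.23 CPM in Mrgprd neurons.

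Among metabotropic receptors, Grm7 was found in every subtype, from 1146 CPM in Trpm8 (1112 to 1180) and 852 CPM in peptidergic neurons to 149 CPM in C-LTMR, and was detected in 100% of the thinned Trpm8 and 61.8% of the thinned C-LTMR neurons. Grm3 had 78.4 CPM in Trpm8 and 2.34 CPM in Bmpr1b and Smr2 neurons. Grm4 had 30.9 CPM in touch and 0.088 CPM in Mrgprd neurons, and Grm5 had 13.1 CPM in Bmpr1b and Smr2 and 0.33 CPM in Mrgprd neurons. Grm8 was near-equal in C-LTMR (44.8 CPM), touch (41.3 CPM) and Bmpr1b and Smr2 neurons (39.8 CPM), against 0.63 CPM in Mrgpra3 neurons.

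The GABA-A genes Gabrb2 and Gabrg1 were highest in touch neurons and Gabra2 in C-LTMR. Gabrb2 had 148 CPM in touch, 16.9 CPM in C-LTMR and 0.22 CPM in peptidergic neurons, and Gabrg1 had 67.8 CPM in touch, 3.28 CPM in Bmpr1b and Smr2 and 0.088 CPM in Mrgprd neurons. Gabra2 had 158 CPM in C-LTMR and 88.9 CPM in touch neurons and was lowest in Nppb and Sst neurons at 29.2 CPM.

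Other GABA-A genes had their highest level in Trpm8 neurons. Gabrb1 had 204 CPM there (190 to 219), 96.2 CPM in C-LTMR and 1.68 CPM in Mrgpra3 neurons, and was detected in 79.4% of 107 thinned Trpm8, 53.9% of C-LTMR and 2.61% of Mrgprd neurons. Gabrg3 had 133 CPM in Trpm8, 105 CPM in Chrna3 and 0.42 CPM in Mrgpra3 neurons. Gabra3 had 52.8 CPM in Trpm8 and 0.41 CPM in Nppb and Sst neurons, and Gabrd, a subunit of extrasynaptic channels, 16.1 and 0.10 CPM. Gabra4 had 18.2 CPM in Trpm8 (14.2 to 23.0) and 16.1 CPM in touch neurons (12.1 to 21.0), which did not differ beyond counting error, and 0.10 CPM in Nppb and Sst neurons; with each barcode scaled to its own total, touch neurons were the highest. In Mrgprd neurons, by contrast, Gabra3, Gabra4, Gabrb1, Gabrb2, Gabrd, Gabrg1 and Gabrg3 each lay below 2 CPM. Not all GABA-A genes were low there: Gabra2 was detected in 24.7% of 574 thinned Mrgprd neurons, and in 81.7% of all 580 without thinning.

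GABA-A genes lie in clusters on several chromosomes. On chromosome 5, in the GENCODE M21 annotation of build GRCm38, the genes Gabra4 and Gabrb1, whose starts overlap on opposite strands, are neighbours of Gabra2 and Gabrg1.

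The RefSeq promoter table (GRCm38.p6) held 43 windows of 36 of the 52 receptor genes. Shown are the 250 bases upstream of the annotated start of 1 gene highest in touch neurons (Gabrb2, the first of its starts in the table), 1 highest in Trpm8 neurons (Gabrg3) and 1 glial gene (Grik2), read 5′ to 3′ on the strand of the gene, with CpG dinucleotides in capitals.
Gabrb2, chr11:42420190-42420439, plus strand: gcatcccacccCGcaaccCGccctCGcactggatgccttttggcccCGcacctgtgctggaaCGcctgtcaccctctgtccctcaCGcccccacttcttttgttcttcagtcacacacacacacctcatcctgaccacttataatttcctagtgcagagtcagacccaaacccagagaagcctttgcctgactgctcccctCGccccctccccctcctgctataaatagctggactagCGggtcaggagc
Gabrg3, chr7:57387216-57387465, minus strand: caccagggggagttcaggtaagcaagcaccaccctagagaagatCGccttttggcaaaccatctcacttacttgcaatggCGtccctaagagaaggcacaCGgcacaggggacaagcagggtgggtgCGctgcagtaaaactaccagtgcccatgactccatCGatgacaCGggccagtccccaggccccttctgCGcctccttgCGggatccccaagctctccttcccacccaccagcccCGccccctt
Grik2, chr10:49788755-49789004, minus strand: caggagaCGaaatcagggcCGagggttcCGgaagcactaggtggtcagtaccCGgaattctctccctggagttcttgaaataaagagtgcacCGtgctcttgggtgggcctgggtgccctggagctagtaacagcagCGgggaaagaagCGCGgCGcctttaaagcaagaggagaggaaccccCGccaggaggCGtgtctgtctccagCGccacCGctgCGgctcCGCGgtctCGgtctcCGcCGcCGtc
These windows hold 8, 9 and 20 CpG, against a median of 8 over the 43 receptor windows and 6 over all 32851 windows of the table. The motif TATAAA, searched on both strands, is in the Gabrb2 window, in 11.6% of the receptor windows and in 12.4% of all windows. The RUNX core TGTGGT was in 11.6% of the receptor windows and 14% of all windows, and ACAAAG, bound by SOX factors, in 6.98% and 16.5%.

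The glycine receptor genes differed in how widely they were found. Glrb had 229 CPM in touch neurons, 165 CPM in Bmpr1b and Smr2 neurons and 17.3 CPM in Nppb and Sst neurons. Among ligand-binding α subunits, Glra2 was the only one measured, with 81 UMIs in Trpm8 neurons (21.1 CPM, 16.7 to 26.2) and 4.76 CPM in touch neurons. Mrgprd neurons had 0 Glra2 UMIs, so the Trpm8 level was at least 321-fold higher, taking 3 counts as the limit that 0 allows, or 255-fold at the lower end of the counting interval. Of the 4 genes under 4-fold, both GABA-B genes were among them, Gabbr1 between 338 CPM in Chrna3 and 148 CPM in Nppb and Sst neurons and Gabbr2 between 83.8 CPM in Trpm8 and 25.6 CPM in touch neurons.

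Only 40 barcodes were gated as proprioceptors, the sensors of muscle length and tension, so they stayed out of the comparison. Their Glrb level was 418 CPM (382 to 457) and their Gabrg1 level 114 CPM (95.3 to 135), both above the levels of the 9 subtypes compared, as was Grm8 at 135 CPM (115 to 158). Gabra5 reached 14.6 CPM there from 17 UMIs. These neurons were shallow for the class, with a median of 21131 UMIs.

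The genes around the receptors varied across subtypes to different degrees. They too entered through the level in their highest subtype, which favours wide ranges among genes that are low in most neurons. Of the auxiliary subunits and ligands 14 of 15 compared were at least 4-fold apart. The scaffolds had 11 of 17 and the transmitter genes 5 of 11, where 34.3% of all 10947 genes were. In that order, the median of highest over lowest was 77.3, 4.75 and 3.06, against 2.70 for all genes.

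Some neurons held UMIs of the vector injected into the tendon sheath. Among neurons with at least 10000 UMIs, 339 had vector UMIs and 2528 had none, with median depths of 53103 and 52093 UMIs. Of 25 receptor genes compared, none was 2-fold higher and 1 was 2-fold lower with vector, where 0.498% and 0.188% of all 9037 genes were, and 22 lay within 1.5-fold. Gabrg3 had 15.6 CPM in neurons with vector and 32.3 CPM in those without, a ratio of 0.48 (0.43 to 0.54). Trpm8 neurons, which had its highest level, were 1.48% of the neurons with vector and 4.04% of those without. Glrb leaned the other way at 96.5 CPM with vector and 66.5 CPM without, a ratio of 1.45 (1.38 to 1.53), and Bmpr1b and Smr2 neurons were 7.08% of the neurons with vector and 2.26% of those without. Whether the makeup accounts for these differences was not tested.

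In tendon, receptor genes were sparse: all 52 together had 236 CPM in the neurectomy and 199 CPM in the sham library, against 2085 CPM in the ganglia. The 13 measured genes included Gria3, Gria4, Grik2, Grik4, Grik5, Grin2a, Grin3a, Grid1, Grm7, Grm8, Gabra3 and Gabbr1. Grin2a, the only one not measured in a DRG class, encodes the GluN2A subunit of NMDA receptors. Glra1, the glycine receptor gene with the most tendon UMIs, had 1.53 to 5.20 CPM in neurectomy classes and 0 to 2.93 CPM in sham classes.

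**Figure D4:**
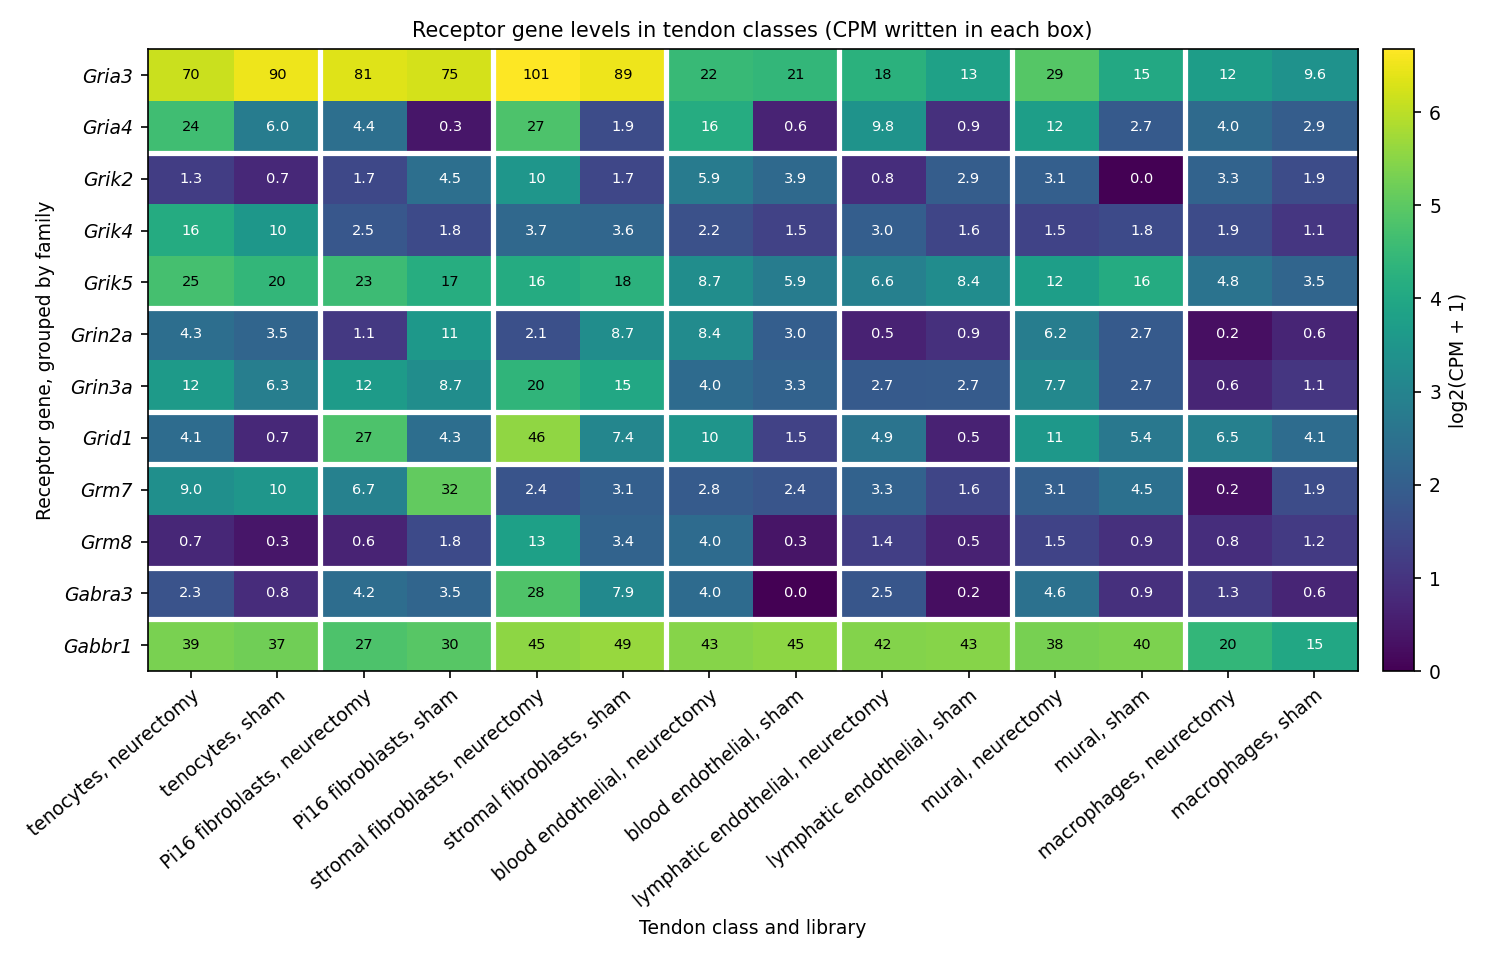
Levels of 12 of the 13 receptor genes compared in tendon. Columns are 7 cell classes, neurectomy left of sham in each pair, rows are genes grouped by family between white lines, colour is log2(CPM + 1) and the number in each box is CPM. Gria3 and Gabbr1 are similar within each pair except for Gria3 in mural cells, and Gria4 and Grid1 are brighter after neurectomy in every class.

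Gria3 and Gabbr1 were the broadest. Gria3 was found in the 3 fibroblast classes at 70.0, 81.1 and 101 CPM in neurectomy tenocytes, Pi16 fibroblasts and stromal fibroblasts, against 89.6, 75.1 and 89.3 CPM in the same sham classes. Gabbr1 had 20.5 to 45.2 CPM in the 7 neurectomy classes and 14.9 to 49.2 CPM in the 7 sham classes. Where these genes could be compared, neither was 2-fold apart between neurectomy and sham in any class. Grik5, the kainate gene with the most tendon UMIs, had 24.9, 22.7 and 16.2 CPM in neurectomy tenocytes, Pi16 and stromal fibroblasts and 20.4, 16.8 and 18.4 CPM in the sham classes, and Grin3a, the leading NMDA gene, had 11.5, 11.6 and 19.6 CPM against 6.29, 8.69 and 14.9 CPM. None of these passed 2-fold.

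For neurectomy against sham, 7 classes had 100 or more barcodes on both sides, and 33 pairs of a gene and a class could be compared. By 2-fold or more, 8 pairs were higher and 3 lower in neurectomy. Stromal fibroblasts (1855 neurectomy and 1590 sham barcodes) held 5 of the 8 higher pairs, of 9 genes compared, where 0.936% of all 9290 genes were as much higher and 0.893% as much lower. The median log2 ratio there was 1.80 for the 9 receptor genes and -0.01 for all genes. In every class a gene entered through its level in the higher library, and this rule was the same for all genes. It favours large ratios among genes near the CPM minimum. The 5 stromal genes reached that minimum in neurectomy only, as did Gria4 in blood endothelial cells. Grin2a in Pi16 fibroblasts reached it in sham only. How far the counts and the median follow from this rule was not tested.

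In stromal fibroblasts, Gria4 had 27.1 CPM after neurectomy (196 UMIs in 107 barcodes) and 1.92 CPM after sham (22 UMIs in 13 barcodes), a ratio of 14.1 (9.08 to 23.1). Grid1 had 46.3 CPM in neurectomy and 7.41 CPM in sham, a ratio of 6.26 (4.92 to 8.03). Grik2 had 10.4 CPM in neurectomy and 1.66 CPM in sham, a ratio of 6.27 (3.75 to 11.0). After thinning to 1000 UMIs, Gria4 was detected in 2.99% of 1370 neurectomy and 0.168% of 1191 sham stromal barcodes (5.77% and 0.818% without thinning), and Grid1 in 2.70% and 0.336% (5.07% and 2.14%).

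The other 2 genes higher in neurectomy stromal fibroblasts were Grm8 and Gabra3. Grm8 had 12.9 CPM in neurectomy and 3.40 CPM in sham, a ratio of 3.78 (2.58 to 5.65). Gabra3, the GABA-A gene measured in tendon, had 27.5 CPM in neurectomy and 7.93 CPM in sham, a ratio of 3.47 (2.70 to 4.50). Its log2 ratio was 1.80 over all barcodes and 0.90 over barcodes with at least 5000 UMIs, below the 2-fold limit.

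Pi16 fibroblasts, a connective tissue type known as a reservoir of fibroblasts, differed in both directions. Of 8 genes compared 1 was higher and 3 were lower in neurectomy (697 neurectomy and 811 sham barcodes), where 0.897% and 0.580% of all 9144 genes were. Grid1 had 27.1 CPM in neurectomy and 4.35 CPM in sham, a ratio of 6.23 (4.38 to 9.05). Grin2a had 6 UMIs in neurectomy (1.15 CPM) and 101 UMIs in sham (10.7 CPM), a ratio of 0.11 (0.038 to 0.24). Grm7 had 6.68 CPM in neurectomy and 32.3 CPM in sham, a ratio of 0.21 (0.14 to 0.29). Pi16 fibroblasts were shallower after neurectomy, with a median of 2874 UMIs against 7631 in sham, and with barcodes of at least 5000 UMIs the log2 ratios were 3.67 for Grid1, -3.10 for Grin2a and -2.87 for Grm7.

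Tenocytes, the main tendon cells (2250 neurectomy and 7512 sham barcodes), had 1 of 8 genes higher and none lower, where 0.816% and 0.618% of all 8578 genes were. This was Gria4, with 23.9 CPM in neurectomy and 6.01 CPM in sham, a ratio of 3.97 (3.40 to 4.64), from 88 neurectomy and 90 sham barcodes with a UMI. A single barcode held 41 of the 386 neurectomy UMIs and another 49 of the 288 sham UMIs. Over barcodes with Xist and no Y-linked UMIs, the log2 ratio was 3.14, against 1.99 over all. Blood endothelial cells (1334 and 1191 barcodes) likewise had 1 of 3 genes higher and none lower, where 1.38% and 0.575% of all 9734 genes were. It was again Gria4, with 53 UMIs in neurectomy (16.4 CPM) and 2 UMIs in sham (0.59 CPM), a ratio of 27.7 (7.29 to 234). In lymphatic endothelial cells, mural cells and macrophages 2, 1 and 2 genes were compared and none was 2-fold apart, where 1.48%, 3.25% and 3.18% of all genes were higher and 0.398%, 3.15% and 0.925% lower.

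**Figure D5:**
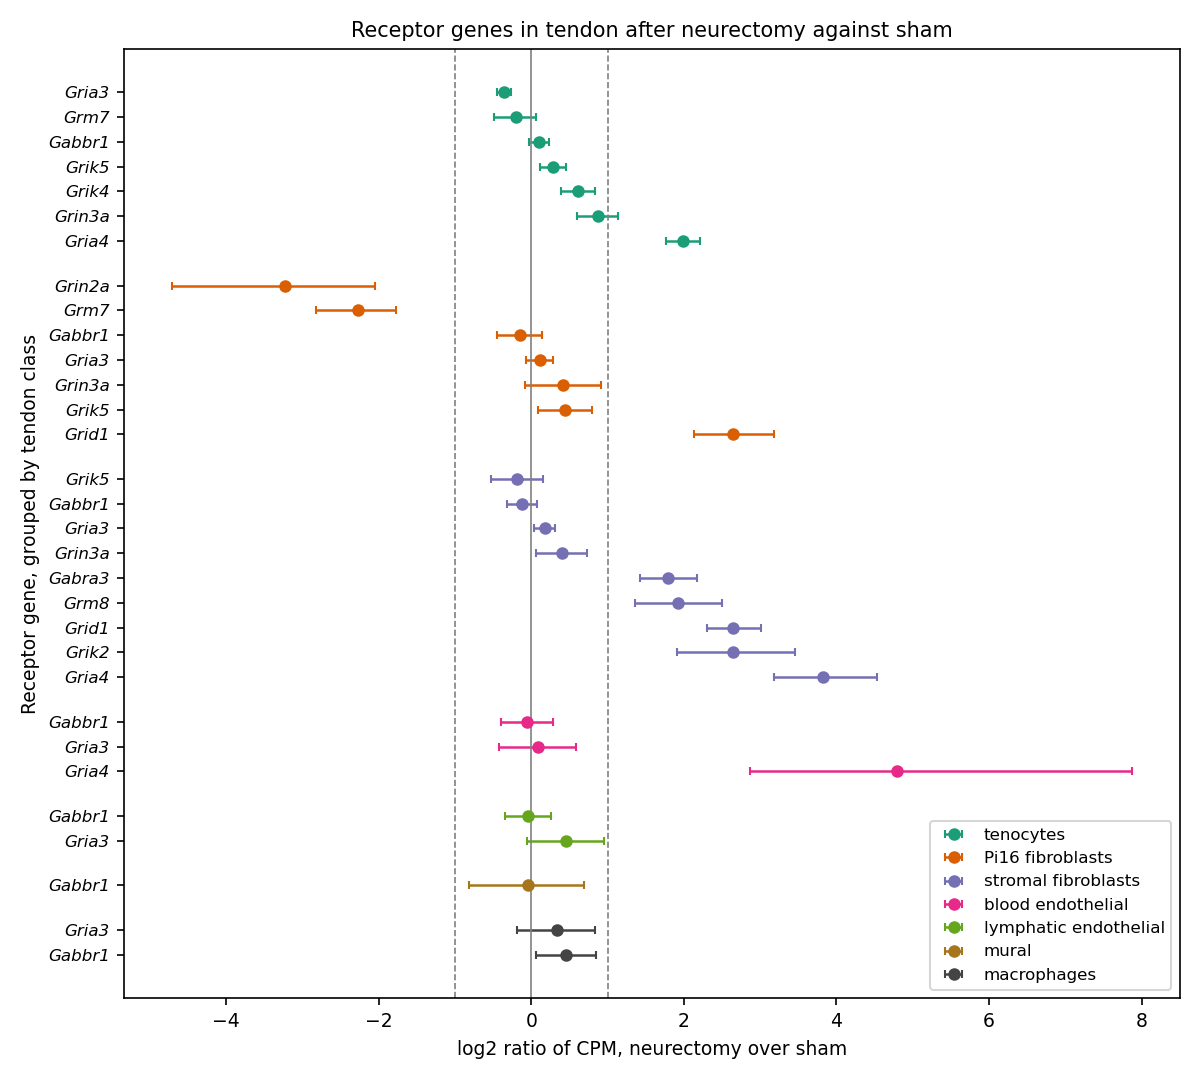
Ratio of neurectomy over sham for 31 of the 33 pairs of a receptor gene and a tendon class. The x axis is the log2 ratio of CPM, points are ratios, bars are 95% counting intervals, colours are classes, the solid line marks equal levels and dashed lines a 2-fold difference. The 5 stromal pairs on the right lie between 1.80 and 3.82, and Grin2a and Grm7 in Pi16 fibroblasts lie at -3.23 and -2.28.

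Several measures moved together with these differences. Gria4 was higher in neurectomy in 7 of 7 classes, at 3.97 to 27.1 CPM against 0.32 to 6.01 CPM in sham, and so was Grid1, at 4.15 to 46.3 CPM against 0.55 to 7.41 CPM, and Gabra3, at 1.25 to 27.5 CPM against 0 to 7.93 CPM. The summed level of 7 skeletal muscle markers was also higher in neurectomy in every class, 65.7 to 171 CPM against 6.41 to 95.6 CPM in sham. In the 318 barcodes gated as skeletal muscle in neurectomy, Gria4 had 8.17 CPM (4 UMIs, 2.23 to 20.9) and Grid1 18.4 CPM (9 UMIs, 8.41 to 34.9). Both lay below their neurectomy and above their sham stromal levels. The 7 Schwann markers summed to 119 CPM in neurectomy and 77.4 CPM in sham stromal fibroblasts, and to 50.6 and 59.5 CPM in Pi16 fibroblasts. Other marker sums differed in stromal fibroblasts too. The 8 tenocyte markers summed to 2886 CPM in neurectomy and 4457 CPM in sham, with 1 of 8 higher in neurectomy. The 7 blood endothelial markers summed to 86.3 and 58.7 CPM, with 7 of 7 higher, the 6 lymphatic endothelial markers to 51.3 and 34.8 CPM, the 8 mural markers to 78.2 and 47.9 CPM and the 6 mast cell markers to 9.13 and 4.27 CPM. Their part in the receptor differences was not tested.

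Gene length moved with them as well. Of the 13 pairs whose gene spans at least 300 kb in GENCODE M21, 10 were 2-fold apart, and of the other 20 pairs 1 was, Gabra3 with 224 kb. Among all genes of stromal fibroblasts, 5.26% of those spanning at least 300 kb were 2-fold higher and 3.80% lower in neurectomy, against 0.775% and 0.763% of shorter genes, and in macrophages 19.2% were higher against 2.66%. Of the 52 receptor genes 17 span at least 300 kb, and of all genes matched 1.86%. No source used here states whether intronic reads were counted. The part of muscle RNA and of gene length in the tendon differences was not tested. On depth, with barcodes of at least 5000 UMIs, which left 6 classes, 4 pairs were higher and 5 lower. On sex, with only barcodes that had Xist and no Y-linked UMIs, 8 were higher and 3 lower. Without barcodes shared by both tendon libraries, 9 pairs were higher and 3 lower. No share over all genes under these settings is set beside these counts, so they describe the receptor pairs only.

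The pathway genes gave few differences between neurectomy and sham. Of the auxiliary subunits and ligands, at most 2 could be compared in a class and none was 2-fold apart. In mural cells 1 scaffold was higher, Dlg2 at 49.2 CPM in neurectomy and 18.9 CPM in sham, and 1 lower, Grip2 at 32.3 and 81.2 CPM. Among transmitter genes in mural cells, the chloride importer Slc12a2 had 220 CPM in neurectomy and 106 CPM in sham and the glycine transporter Slc6a9 18.5 and 49.6 CPM. In mural cells 9 scaffolds and 5 transmitter genes were compared, where 3.25% of all 5912 genes were higher and 3.15% lower. No pathway gene was 2-fold apart in the other 6 classes.

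Small tendon classes held high levels of some receptor genes, but with too few barcodes for the comparison. Synovial lining cells, marked by the lubricin gene Prg4, had Gria1 at 61.2 CPM in neurectomy (115 barcodes, 42.6 to 85.1) and 16.6 CPM in sham (65 barcodes, 8.59 to 29.1). Schwann cells had Grik2 at 1358 CPM in neurectomy (141 barcodes, 1251 to 1472) and 308 CPM in sham (56 barcodes, 252 to 372), and Gria3 at 145 and 158 CPM. Mast cells had Grik2 at 956 CPM in neurectomy (64 barcodes, 105 UMIs) and 197 CPM in sham (50 barcodes, 38 UMIs). Grik2 was thus high in Schwann cells of tendon as in Schwann cells of the ganglia, while in fibroblasts of tendon and ganglia it did not pass 25.7 CPM.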

How the data were processed

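The authors deposited raw counts, whole numbers of UMIs for each gene in each barcode. Per the file headers, Cell Ranger 8.0.1 produced them. The submitters' processing notes list mm10 and GRCm39 and do not tie either to a library; counting of introns is not given in the sources used here. Total counts and median depths limit precision: medians were 1212, 1065 and 3422 UMIs per barcode in the neurectomy, sham and DRG libraries.

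Barcodes with under 500 genes or over 15% mitochondrial UMIs were left out. A class needed 3 markers above 2 times their mean CPM over barcodes, and a neuron subtype 2 markers (touch neurons 3) of at least 2 UMIs with a lead marker among them. Narrower classes won over the classes that contain them. Barcodes passing more than 1 gate (1279, 1381 and 597) were left out as mixed, and no doublet caller was run. The gates were set after the data had been seen, and the receptor genes and lists were chosen with earlier results of these data known.

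UMIs were summed per class. Levels have exact Poisson, ratios exact conditional binomial and shares exact Clopper-Pearson 95% intervals. A gene was compared with at least 50 UMIs summed over both sides and 10 CPM in the higher one. Limits were 4-fold in the ganglia and 2-fold in tendon, and 0 UMIs was set to 3 counts for ratios. Named were genes past these limits, the leading gene of each family and up to 4 pathway genes per role. Some genes counted in the totals are not reported here by name or drawn. With 1 library per group, no p-values were computed. On simulated counts for neurons over satellite glia, 100% of 94 genes changed 6-fold and 0% of 9055 unchanged genes were called higher. For neurectomy over sham in stromal fibroblasts, 100% of 107 genes changed 3-fold and 0% of 8867 unchanged genes were. The simulated counts held counting error only and folds above the limits. They therefore check the calling and give no rate of false calls between real pools. Python 3.11.15 with numpy 2.4.6, scipy 1.17.1 and pandas 2.3.3 was used.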

Additional observations from a re-analysis of the deposited data

How the results depend on the processing

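No named value changed sign under any alternative: of 484, 413 stayed within their counting interval and 71 moved beyond it. The number of receptor genes measured in DRG classes was 27 and became 44 with a minimum of 20 summed UMIs and no CPM minimum. The tendon pairs at least 2-fold higher in neurectomy numbered 8 and became 5 with at least 1000 genes per barcode, 4 with at least 5000 UMIs and 23 with the lower minimum, and those at least 2-fold lower numbered 3 and became 5 with at least 5000 UMIs and 10 with the lower minimum. No share over all genes under these settings is set beside these counts, so they describe the receptor genes only. The cause of these shifts was not tested. Of the 11 pairs, 10 stayed 2-fold under every alternative that gave a value. The pairs had values under 4 to 9 alternatives, with 4 for Gria4 in blood endothelial cells. In stromal fibroblasts Grik2 had 6 and Grm8 had 7. The highest neuron subtype was kept for 34 of 34 genes with at least 1000 genes per barcode and 29 of 34 with each barcode scaled to its own total. It was kept for 22 of 30 with a stricter gate and 8 of 27 with at most 5% mitochondrial UMIs, where 5 and 4 of the 9 subtypes had enough barcodes. Added after the data had been seen were neurons with at least 10000 UMIs, barcodes with Xist and no Y-linked UMIs, and tendon barcodes not shared by both libraries. No paired analysis was possible because each group is 1 library. Levels rest on 1 pool per group.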
